A study of Mus musculus with 4 samples.

Results

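The synaptic vesicle and SNARE genes described here are the 61 genes whose symbol on the array belongs to the Vamp, Syt, Stx, Stxbp, Snap, Cplx, Syn, Sv2, Rab3 or Nap groups or is Nsf or Syp. They were taken by symbol alone, from spots that the platform annotation gives to a single gene. These 61 genes have 78 spots, out of 10698 named genes and 16281 spots on the array. The symbol pattern also took genes with other roles, namely Snap91, a clathrin adaptor, and 9 small GTPases from Rab30 to Rab38. No spot was named for Rims1, Syn1 or Sv2b, so these genes of the release machinery are not analysed here.

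RNA came from the CA1 field of the hippocampus of young male mice of the inbred strain C57BL/6J. Both groups received MK-801, which blocks the NMDA type of glutamate receptor, at a labelled 300 micrograms per g of body weight, a value far above usual mouse doses and so uncertain. The MK group had the drug alone. The MK C+S group had it 1 h before fear conditioning to a context, which was 3 rounds of 2 min in an unfamiliar chamber, each ended by a 1 s foot shock of 0.5 mA. They went back to the home cage 1 min after the last shock. CA1 was collected at 4 times (1, 2, 4 and 6 h) in both groups, counted from the last shock in the MK C+S group. Each time has 1 array with 2 dyes (MK green, MK C+S red). How many animals an array stands for is not given. Animals without the drug are not analysed here, so the values compare conditioning with no conditioning under the drug.

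Neurons release transmitter when a vesicle fuses with the membrane of the nerve ending. A SNARE on the vesicle (a VAMP, or R-SNARE) zips together with syntaxin and SNAP-25 on the target membrane. Syntaxin-binding proteins and complexins assist and hold this complex, synaptotagmins sense the calcium that triggers fusion, and NSF with its SNAP adaptors takes the spent complex apart. Synapsins, synaptophysin and SV2 are proteins of the vesicle itself, and Rab3 GTPases act in bringing vesicles to the release site. Other VAMPs and syntaxins serve membrane traffic in every cell type, in endosomes, lysosomes and the Golgi.

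All values are log ratios per array, read as log10, so 2-fold is 0.301. The base and the direction are not stated by the labels. Ratios of this kind are usually red divided by green, in which case positive values stand for more transcript in the conditioned animals. This direction is likely but not known. A ratio does not show how abundant a transcript is. In a tissue sample, fewer cells of a type and less RNA per cell cannot be told apart. No time has a replicate array, which limits the precision of every value. MK C+S was always in red, so conditioning and dye bias cannot be told apart.

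Of the 78 spots, 68, 72, 75 and 75 had a ratio at 1, 2, 4 and 6 h, and 62 had one on every array. An exact 0 in the deposited table was read as no ratio. Of the 61 genes, 51 had a value on all 4 arrays, 7 on 3, Syt8 on 2, and Rab32 and Stx11 only at 1 h. The spread over all spots of the array, as a scaled median absolute deviation, was 0.153, 0.153, 0.148 and 0.217 at 1, 2, 4 and 6 h, so ratios at 6 h were the most scattered.

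Most members lay within 2-fold at every time, with the largest share past it at 6 h. At 1 h, 4 of 57 measured members (7.02%) passed 2-fold, beside 8.47% of all genes. At 2 h it was 2 of 56 (3.57%), beside 6.58% of all genes, and at 4 h 1 of 58 (1.72%), beside 7.07%. At 6 h it was 14 of 58 (24.1%), beside 21.9%. The members past 2-fold were Stx6 and Syt10 (positive) and Vamp7 and Syt2 (negative) at 1 h, Stxbp2 (positive) and Vamp7 (negative) at 2 h, and Vamp1 (negative) at 4 h. At 6 h, Stx2, Stx19, Snap23, Snap25 and Rab3b were positive, and Vamp1, Stx17, Stxbp2, Syt6, Syt9, Syt10, Cplx2, Nsf and Rab37 were negative. In all, 44 members never passed 2-fold, among them Rab32 and Stx11 with 1 array each and Syt8 with 2. Vamp1, Vamp7, Stxbp2 and Syt10 passed it at 2 times each. Counts over the times were not made for all genes, so these have no background beside them. All the sizes given rest on the log10 reading, and with natural or base-2 logs only Vamp1 at 4 h passed 2-fold among the members.

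**Figure D1:**
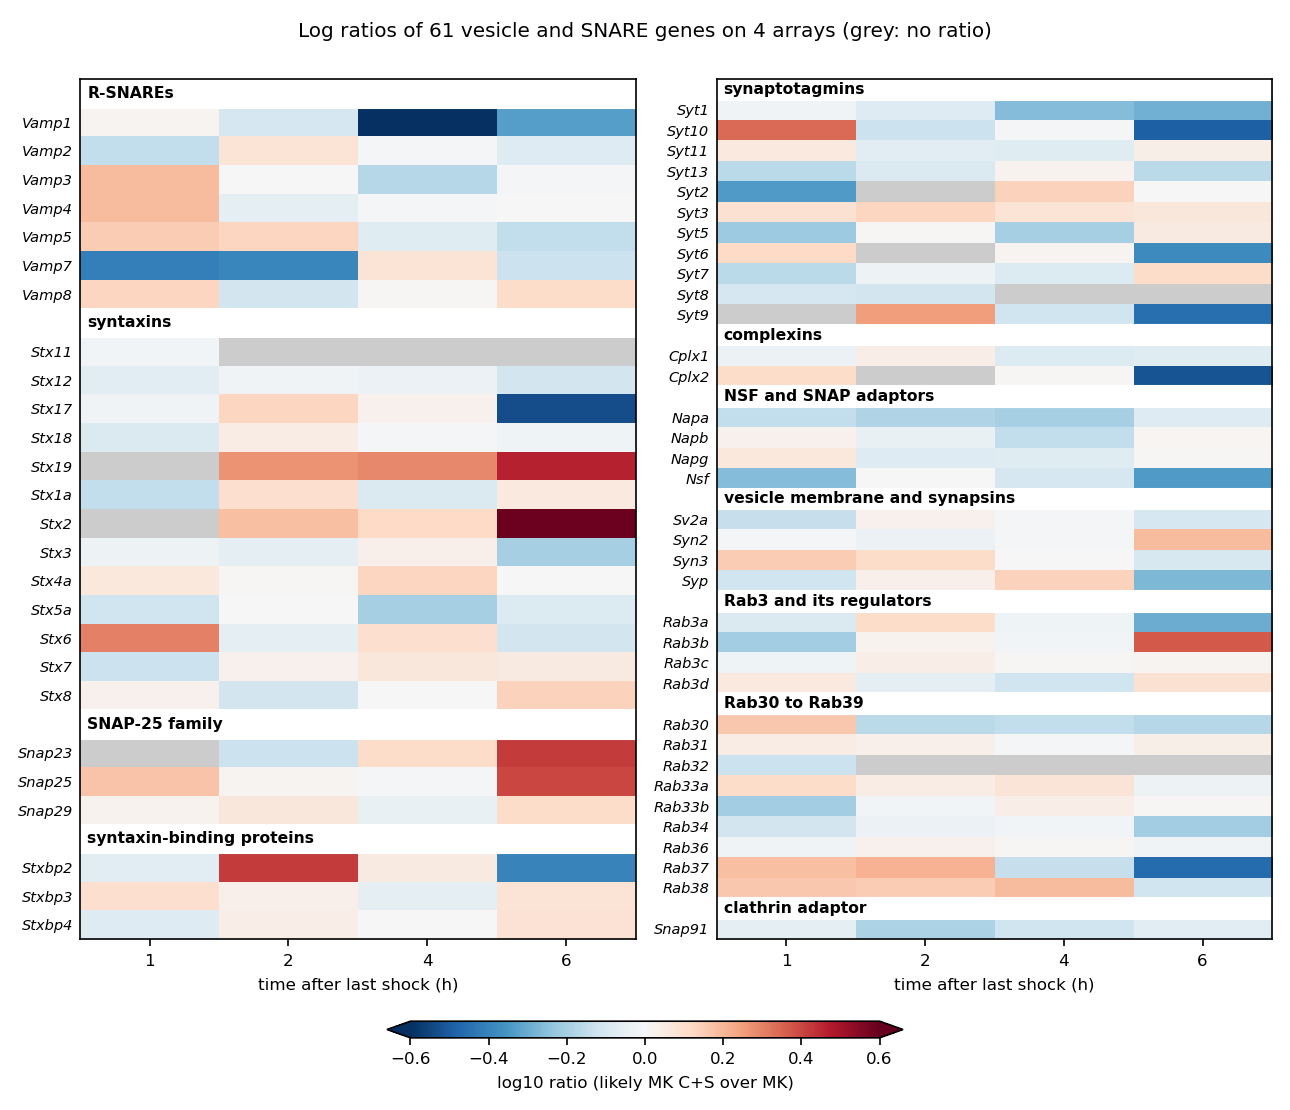
Log10 ratio of each of the 61 member genes at 1, 2, 4 and 6 h after the last shock, in blocks by role, with red likely higher in MK C+S, blue likely lower and grey no ratio. The colour scale ends at 0.6 on both sides, past which only Vamp1 at 4 h (-1.78) lies, and most strong colours stand in the 6 h column.

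As a group the members did not stand to one side. The median was -0.020 at 1 h (25 positive, 32 negative), 0.0082 at 2 h (32 positive, 24 negative), -0.011 at 4 h and -0.029 at 6 h (25 positive and 33 negative at each). The medians of all genes were 0.0013, -0.00074, -0.00095 and -0.0062. The sign at 2 h was not stable, since the median was -0.039 once a running median over 51 neighbouring spots had been removed. The interquartile range of the members ran from -0.060 to 0.052 at 2 h and from -0.082 to 0.031 at 4 h, while that of all genes ran from -0.10 to 0.092 and from -0.099 to 0.091. No test was made of this narrower range. At 1 h the members' range, -0.12 to 0.096, was close to that of all genes, -0.094 to 0.10.

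**Figure D2:**
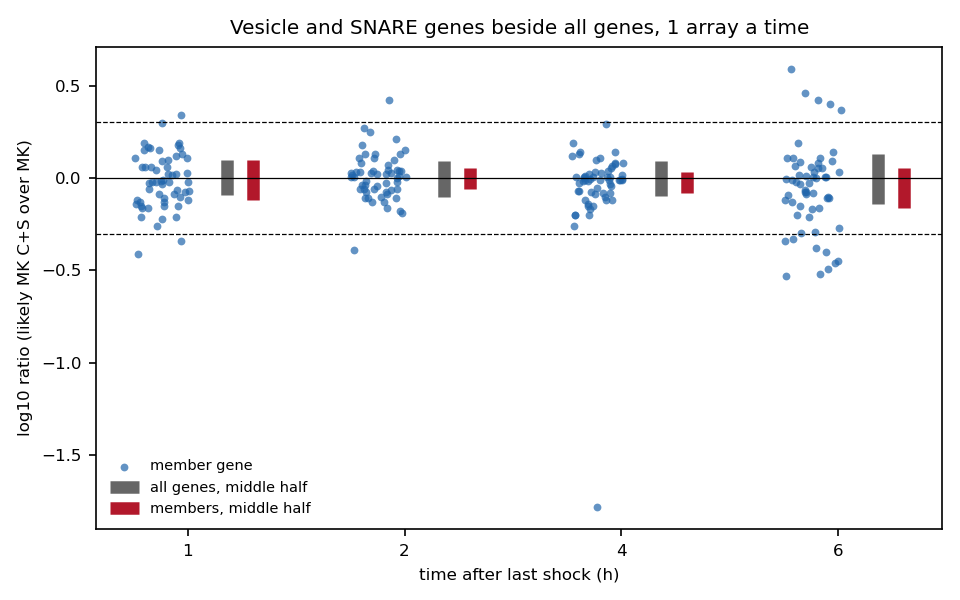
Log10 ratio of each measured member gene (blue points) at 1, 2, 4 and 6 h, with the interquartile range of all genes (grey bar) and of the members (red bar), and dashed lines at 2-fold. The members crowd around 0 at 2 and 4 h, with Vamp1 alone at -1.78, and spread out at 6 h.

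The R-SNAREs held the most extreme member. Vamp1, a vesicle SNARE of fast synapses and the close relative of Vamp2, was at 0.017, -0.10, -1.78 and -0.33 at 1, 2, 4 and 6 h. The 4 h value is a 60.1-fold ratio, far from the rest, and 6 h was the next lowest. It rests on a single spot, and that spot was at -1.71 at 4 h after the running median of its neighbours had been removed. The mean over times was -0.55 (SD 0.83, n = 4 arrays), or -0.14 without the 4 h array, with an adjusted p of 0.485 in limma's moderated test. Vamp2, the main vesicle SNARE of forebrain neurons, had no such low value and was at -0.15, 0.081, -0.012 and -0.079. Its spots differed at 1 h, with 1 at 0.036 and the other at -0.33.

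Vamp7, a SNARE of late endosomes, lysosomes and neurite growth, was at -0.41, -0.39, 0.080 and -0.13. It was negative at 3 of 4 times, with the early values lowest. The mean was -0.21 (SD 0.23, n = 4), with an unadjusted p of 0.0564 and an adjusted p of 0.452 in limma. Its 2 spots carry the same accession and were both negative at 2 h (-0.30 and -0.48), but at 4 h they stood at 0.34 and -0.18. Vamp3, an endosomal SNARE found in all cell types, was at 0.19, 0.0043, -0.17 and -0.0093. Vamp4, of the trans-Golgi network, was at 0.19, -0.058, -0.012 and 0.0033. Vamp5 was at 0.15, 0.13, -0.072 and -0.15, and Vamp8, an endosomal and secretory granule SNARE, at 0.13, -0.11, 0.0074 and 0.11. Of the 7 R-SNAREs, 5 were positive at 1 h, beside 50.4% of all genes, and 5 negative at 6 h, beside 5191 of 10102 genes. Vamp1, Vamp3, Vamp4, Vamp5 and Vamp8 each had their highest value at 1 h.

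The syntaxin of synaptic release, Stx1a, was at -0.15, 0.10, -0.086 and 0.057, changing sign between successive times. Stx3, which also serves release and postsynaptic membrane insertion, was at -0.029, -0.058, 0.032 and -0.20. Stx4a, a plasma membrane syntaxin, was positive on all 4 arrays but small, at 0.062, 0.0080, 0.13 and 0.0022. Stx12, of recycling endosomes, was negative on all 4, at -0.068, -0.019, -0.033 and -0.11.

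Among syntaxins that measured past 2-fold, Stx2 and Stx19 had no ratio at 1 h and were positive at every other time. Stx2, a plasma membrane syntaxin, was at 0.18, 0.12 and 0.59 at 2, 4 and 6 h, and Stx19 at 0.27, 0.29 and 0.46. Stx17, the autophagosome syntaxin, went the other way at 6 h, with values of -0.021, 0.13, 0.028 and -0.53. Stx6, of the trans-Golgi network and endosomes, was at 0.30, -0.059, 0.10 and -0.11, and its ratio of 2.01-fold at 1 h lies just past the threshold. The remaining syntaxins with values at all times (Stx5a, Stx7, Stx8 and Stx18) stayed between -0.20 and 0.14.

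The SNAP-25 family supplies a pair of helices to each SNARE complex. At 6 h 3 of its 3 genes were positive (median 0.40), beside 48.6% of all genes. Snap25, the neuronal form, was at 0.17, 0.018, -0.0053 and 0.40. Its value was near 0 in the middle of the course and highest at 6 h, where the ratio was 2.51-fold, and its mean of 0.15 (SD 0.19, n = 4) was 0.060 without that array. Snap23, the form found in most cell types and at postsynaptic sites, was at -0.13, 0.11 and 0.42 at 2, 4 and 6 h. Both of its spots were positive at 6 h, at 0.57 and 0.26. Snap29, an endosomal and autophagic form, was at 0.023, 0.069, -0.043 and 0.11. Its value at 6 h is the mean of spots at 0.53 and -0.31. The Snap29 spot at 0.53 and both Snap23 spots had no ratio at 1 h, and such spots ran high at 6 h over the whole array.

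The syntaxin-binding genes on the array shared no direction. Stxbp2 (Munc18-2), best known from secretion in blood cells and epithelia, was at -0.067, 0.42, 0.056 and -0.40, past 2-fold in opposite directions at 2 and 6 h. Stxbp3 (Munc18c), a partner of plasma membrane syntaxins, stayed between -0.052 and 0.10. Stxbp4, a syntaxin-binding protein outside the Munc18 family, was at -0.077, 0.038, 0.0033 and 0.089.

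**Figure D3:**
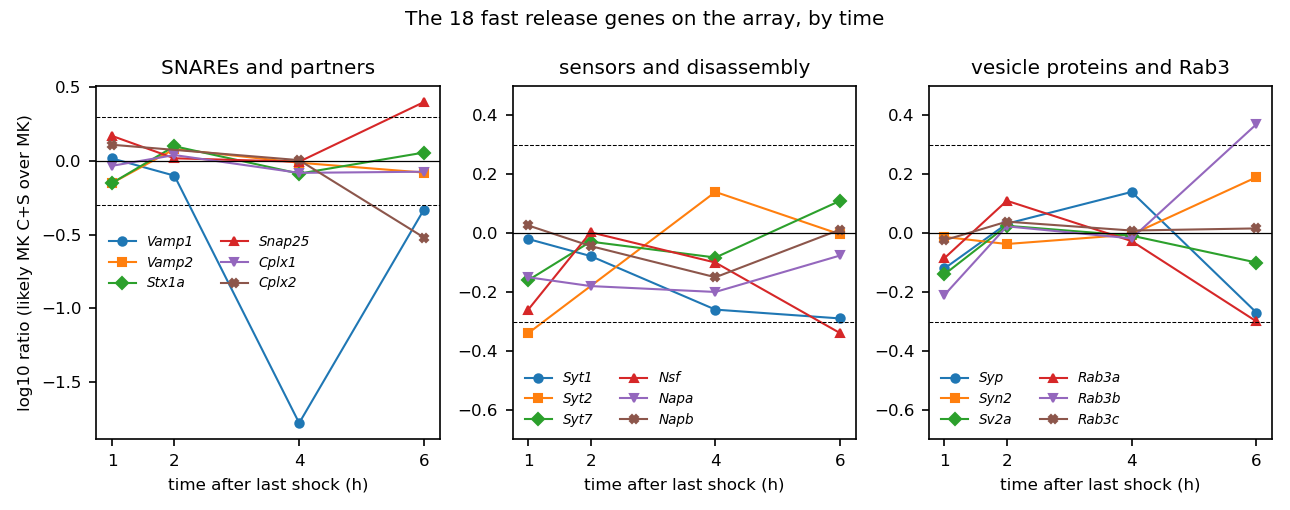
Log10 ratio against hours after the last shock for the 18 genes of fast transmitter release on the array, 1 line a gene (a line skips an array without a ratio), with dashed lines at 2-fold and a longer vertical axis in the first panel. Vamp1 drops to -1.78 at 4 h, Syt1 and Napa are below 0 on every array, and Snap25 and Rab3b end above 2-fold at 6 h.

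Of 7 synaptotagmins with a value on all arrays, 6 had a negative mean over the course, beside 53.9% of all genes and 58.8% of the members. The means of Syt10 and Syt11 changed sign with 1 array left out, and that of Syt7 was -0.00059 without the 1 h array. Syt1, the calcium sensor of fast release in forebrain neurons, was at -0.020, -0.078, -0.26 and -0.29, negative on all 4 arrays and lowest at 4 and 6 h. Its mean was -0.16 (SD 0.13, n = 4), with an unadjusted p of 0.0445 and an adjusted p of 0.434 in limma. Syt2, the fast sensor of hindbrain and some interneurons, had no ratio at 2 h and was at -0.34, 0.14 and -0.0042 at 1, 4 and 6 h. Syt7, a slow, high-affinity sensor, was at -0.16, -0.029, -0.083 and 0.11, and its spots lay over 2-fold apart at 1 and 2 h.

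Syt3, a plasma membrane synaptotagmin linked to receptor uptake, was the single one with a positive mean. It was at 0.090, 0.13, 0.081 and 0.067, with a mean of 0.092 (SD 0.027, n = 4). That sign came from 1 of its spots, which was positive on all arrays, while the other was negative at 2, 4 and 6 h. At 2 h they were at 0.30 and -0.039. Syt10, a sensor linked to secretion of growth factor, went from the highest member value at 1 h to a low one at 6 h, with 0.34, -0.13, -0.013 and -0.49. Syt6 (0.12, 0.016 and -0.38 at 1, 4 and 6 h) and Syt9 (0.25, -0.12 and -0.45 at 2, 4 and 6 h) were also past 2-fold and negative at 6 h. Syt5 was at -0.22, 0.0083, -0.20 and 0.053, Syt11 between -0.071 and 0.060, and Syt13 between -0.16 and 0.020. Syt8 was at -0.10 and -0.11 at 1 and 2 h, with no later ratio.

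Cplx1 and Cplx2, the complexins that clamp and assist the SNARE complex, differed at 6 h. Cplx1 stayed near 0, at -0.033, 0.040, -0.081 and -0.073. Cplx2, the more abundant form of excitatory forebrain neurons, was at 0.11, 0.0054 and -0.52 at 1, 4 and 6 h, with no ratio at 2 h.

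The 4 genes that take SNARE complexes apart all had a negative mean, with a median of -0.096, and all were negative at 4 h, as were 5180 of 10312 genes. With 4 h left out the mean of Napb was -0.0018, and with 2 h left out that of Napg was -0.0023. Napa (alpha-SNAP, the adaptor found in all cell types) was at -0.15, -0.18, -0.20 and -0.076. It was negative on every array, in a narrow range, with a mean of -0.15 (SD 0.054, n = 4), an unadjusted p of 0.0214 and an adjusted p of 0.427 in limma. Nsf, the ATPase, was at -0.26, 0.0028, -0.10 and -0.34, so it was low at 1 and 6 h and at a ratio of 1 at 2 h. Its mean was -0.17 (SD 0.15, n = 4), with an unadjusted p of 0.0446 and an adjusted p of 0.434. Napb, the brain form (beta-SNAP), had 3 spots and was at 0.026, -0.044, -0.15 and 0.012. Napg (gamma-SNAP) was at 0.062, -0.076, -0.074 and 0.0047. Napa and Nsf each rest on 1 spot.

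Promoter windows of 4 members, chosen after their values were seen, are shown as sequence context. Napa and Nsf are the disassembly genes with the lowest means, Vamp1 had the largest ratio, and Stxbp3 is the other member whose window holds a full CRE. A CRE, the site bound by the CREB factors that activity can switch on, was searched as TGACGTCA, and its core as TGACG, on both strands, so the core lies inside the full site. Capitals mark the core or the full site. The windows are 300 bases around the annotated start, from RefSeq (GRCm38.p6), written 5′ to 3′ along the gene's strand.
Napa, chr7:16098330-16098629, plus strand: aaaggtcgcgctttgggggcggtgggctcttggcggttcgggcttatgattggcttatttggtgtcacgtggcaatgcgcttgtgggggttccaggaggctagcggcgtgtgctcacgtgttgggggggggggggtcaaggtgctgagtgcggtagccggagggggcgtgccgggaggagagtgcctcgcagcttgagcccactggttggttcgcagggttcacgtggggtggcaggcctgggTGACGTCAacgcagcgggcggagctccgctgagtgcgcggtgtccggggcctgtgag
Stxbp3, chr3:108840453-108840752, minus strand: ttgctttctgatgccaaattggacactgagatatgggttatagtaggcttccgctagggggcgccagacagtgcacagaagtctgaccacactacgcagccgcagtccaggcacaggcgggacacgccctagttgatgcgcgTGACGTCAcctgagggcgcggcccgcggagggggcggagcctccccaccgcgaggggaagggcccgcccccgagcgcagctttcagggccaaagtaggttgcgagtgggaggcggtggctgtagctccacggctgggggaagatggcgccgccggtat
Nsf, chr11:103954007-103954306, minus strand: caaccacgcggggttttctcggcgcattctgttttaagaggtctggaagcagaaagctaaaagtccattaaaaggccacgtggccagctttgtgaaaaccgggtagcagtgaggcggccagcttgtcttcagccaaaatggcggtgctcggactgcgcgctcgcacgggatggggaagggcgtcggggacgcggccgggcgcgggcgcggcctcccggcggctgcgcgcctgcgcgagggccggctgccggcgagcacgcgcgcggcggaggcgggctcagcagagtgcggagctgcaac
Vamp1, chr6:125215331-125215630, plus strand: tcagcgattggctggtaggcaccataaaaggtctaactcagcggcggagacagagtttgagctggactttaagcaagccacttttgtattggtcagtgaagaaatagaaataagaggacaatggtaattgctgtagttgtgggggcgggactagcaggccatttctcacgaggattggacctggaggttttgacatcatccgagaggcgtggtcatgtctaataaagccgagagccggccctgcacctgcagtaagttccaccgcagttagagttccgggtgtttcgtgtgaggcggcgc

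Of the 61 members, 48 matched this promoter table, with 61 windows. The full CRE was in 2 windows (3.28%), those of Napa and Stxbp3, beside 1.79% of all 32851 windows. The core was in 17 windows of 16 genes (27.9%), beside 20.8% of all windows, and the TATA box TATAAA in 3 (4.92%), those of Rab3b, Stx2 and Stx3, beside 13.6%. The members holding a full CRE had unlike values, with Napa between -0.20 and -0.076 and Stxbp3 between -0.052 and 0.10. A match describes letters in the window and not a bound site.

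Proteins of the vesicle itself stayed below 2-fold. Syp (synaptophysin, the most abundant vesicle membrane protein) was at -0.12, 0.032, 0.14 and -0.27. Sv2a, a vesicle glycoprotein and the target of the drug levetiracetam, was at -0.14, 0.025, -0.0086 and -0.10. Syn2, a synapsin that tethers vesicles, was at -0.013, -0.037, -0.0048 and 0.19, and its spots at 6 h were at 0.61 and -0.24. Syn3 was at 0.15, 0.11, 0.0016 and -0.094. These 4 genes shared no direction over the times, although 3 of them were negative at 1 h and at 6 h.

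The Rab3 isoforms, which sit on vesicles before fusion, were within 2-fold except Rab3b. Rab3a, the main neuronal form, was at -0.085, 0.11, -0.027 and -0.30. Its value at 6 h lies just inside 2-fold and is the mean of spots at 0.20 and -0.80, the widest gap between spots of a member. Rab3b was at -0.21, 0.023, -0.018 and 0.37, Rab3c between -0.024 and 0.039, and Rab3d between -0.12 and 0.090. The last is best known from exocrine and other secretory cells.

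The GTPases taken by the symbol pattern beyond Rab3 serve Golgi, endosome and melanosome traffic. Of these 9 genes, Rab37, linked to secretory granules, was the one past 2-fold, at 0.18, 0.21, -0.14 and -0.46. It had the smallest p in the slope on hours of all members. Rab34 was negative on all arrays, at -0.11, -0.036, -0.017 and -0.21, Rab38 was at 0.16, 0.15, 0.19 and -0.12, and Rab30 was at 0.16, -0.16, -0.15 and -0.17. Rab31, Rab33a and Rab36 stayed between -0.030 and 0.11, Rab33b was at -0.21 at 1 h and near 0 later, and Rab32 was at -0.13 at 1 h alone. Snap91 (AP180), which recruits clathrin to recovered vesicles, was negative on all arrays, at -0.059, -0.19, -0.12 and -0.064, but its spots at 2 h were at -0.56 and 0.19. Without these 10 genes, the members' medians were -0.021, 0.0080, -0.0098 and -0.0093 at 1, 2, 4 and 6 h.

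The mean over the 4 times asks whether a gene's average log ratio differs from 0, and its error is how far the 4 arrays differ. It does not ask for the same sign on every array. Of the 51 members with a value on all arrays, 21 had a positive and 30 a negative mean (58.8% negative, beside 53.9% of all genes), with a median of -0.021, beside -0.0095 over all genes. In limma, 0 members and 0% of all 8553 genes passed an adjusted p of 0.05, and the lowest adjusted p of a member was 0.427. At an unadjusted p under 0.05 there were 3 members (5.88%), namely Napa, Nsf and Syt1, beside 11.4% of all genes. Napa was among them under every alternative except without the 2 h array, which left only Nsf, or without the 4 h array, which left only Vamp7. The 10 largest mean values in size were those of Vamp1, Vamp7, Nsf, Syt1, Napa, Snap25 (0.15), Snap91 (-0.11), Stx5a (-0.10), Stx17 (-0.098) and Syt13 (-0.095). All but Snap25 were negative.

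Signs were shared by all 4 arrays for 7 members (13.7%), beside 21.8% of all genes. Stx4a and Syt3 were positive throughout, and Napa, Rab34, Snap91, Stx12 and Syt1 negative. The members' share lies below the background, so a shared sign is not a result about these genes. Over all spots, Pearson r was 0.373 between 2 and 4 h, 0.320 between 4 and 6 h, 0.219 between 1 and 2 h and 0.195 between 2 and 6 h. The 1 h array was close to unrelated to the late ones, at 0.0288 with 4 h and 0.0165 with 6 h. These correlations are across spots of arrays with separate RNA, and spots are not independent replicates.

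The slope on hours asks for a trend from 1 to 6 h. In limma, 0 members and 0% of all genes passed an adjusted p of 0.05, and 5 members (9.80%) had an unadjusted p under 0.05, beside 14.6% of all genes. Rab37 (slope -0.14 log10 units per h, SE 0.029, unadjusted p 0.00231, adjusted p 0.135), Syt10 (-0.13 per h, adjusted p 0.201), Stx17 (-0.11 per h) and Vamp5 (-0.066 per h) sloped down, and Rab3b (0.097 per h, adjusted p 0.224) up. Vamp5 rests on 1 of its 2 spots, which was at 0.25, 0.18, -0.13 and -0.47, while the other was at 0.048, 0.079, -0.012 and 0.16. The 4 that sloped down had their lowest value at 6 h, and Rab3b its highest. Without the 6 h array, 2 members had an unadjusted p under 0.05, Vamp1 and Vamp7, and none of these 5. Without the 4 h array, Rab37 passed at an adjusted p of 0.0469, as did 399 genes in all.

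Different spots of a gene give the best check of single values. Of the 61 members, 45 had 1 spot, 15 had 2 and Napb had 3. In pairs of spots of the same member, the signs were alike in 5 of 12 pairs at 1 h, 11 of 17 at 2 h, 11 of 18 at 4 h and 7 of 18 at 6 h. The shares over all genes with several spots were 52.6%, 52.7%, 54.0% and 53.3%. A gap over 2-fold was found in 3, 3, 1 and 5 of these pairs, beside 20.9%, 21.1%, 15.9% and 41.0% of pairs over all genes. The median gap was 0.209, 0.0914, 0.0748 and 0.162, against medians of 0.144, 0.144, 0.132 and 0.231 over all genes. Pairs with the same accession, for Napb, Rab3d, Stxbp4 and Vamp7, lay within 2-fold at every time except Vamp7 at 4 h.

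**Figure D4:**
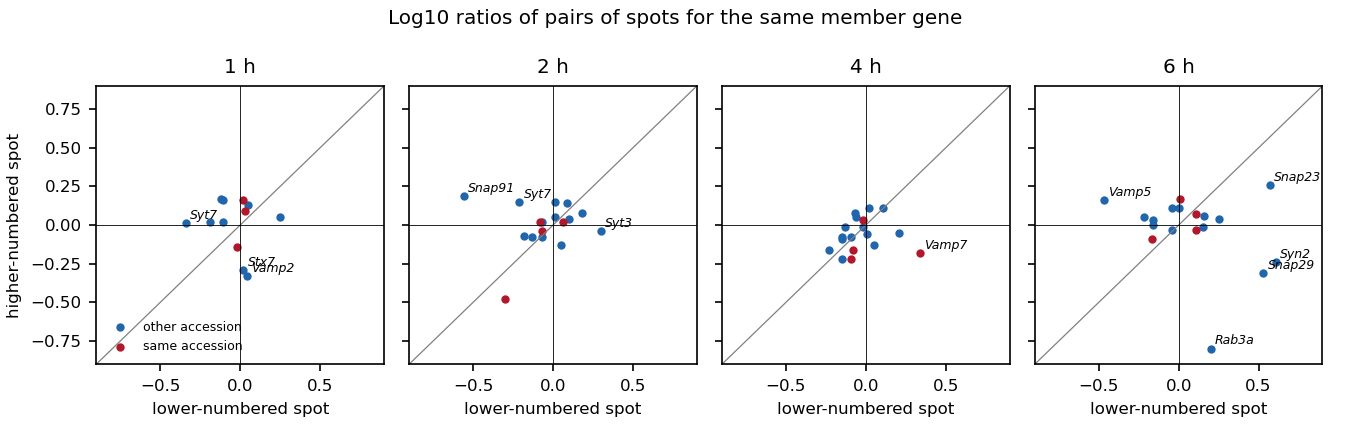
Log10 ratio of the lower-numbered against the higher-numbered spot for each pair of spots of the same member gene at 1, 2, 4 and 6 h, red where both carry the same accession, with the line of equality and names for pairs over 2-fold apart. Signs were alike in 7 of 18 pairs at 6 h, where Syn2, Snap29 and Rab3a lie far below the line.

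Member spots without a ratio at 1 h ran higher at 6 h than those with one. Of the member spots, 10 had no ratio at 1 h, and these had a median of 0.36 at 6 h, with 7 of 10 positive and 5 past 2-fold upwards. They were the spots of Snap23 (2 spots), Stx2, Stx19, Snap29, Syn2, Stx5a, Snap91, Vamp7 and Syt9. The 65 member spots with a ratio at both times had a median of -0.021, with 28 positive and 2 past 2-fold upwards, Snap25 and Rab3b. The same held over the whole array, where spots without a ratio at 1 h had a median of 0.22 at 6 h and 40.0% of them passed 2-fold upwards, against -0.025 and 6.52% of the others. At 2 and 4 h the medians of the spots without a 1 h ratio were -0.0085 and 0.033. The part of this in the values of Stx2, Stx19, Snap23 and Snap29 was not tested. With only the spots that had a ratio on all arrays, 9 of 51 members passed 2-fold at 6 h, beside 18% of all genes. With all spots it was 14 of 58, beside 21.9%. That limit also left out Cplx2 and Syt6, which had a ratio at 1 h but none at 2 h.

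**Figure D5:**
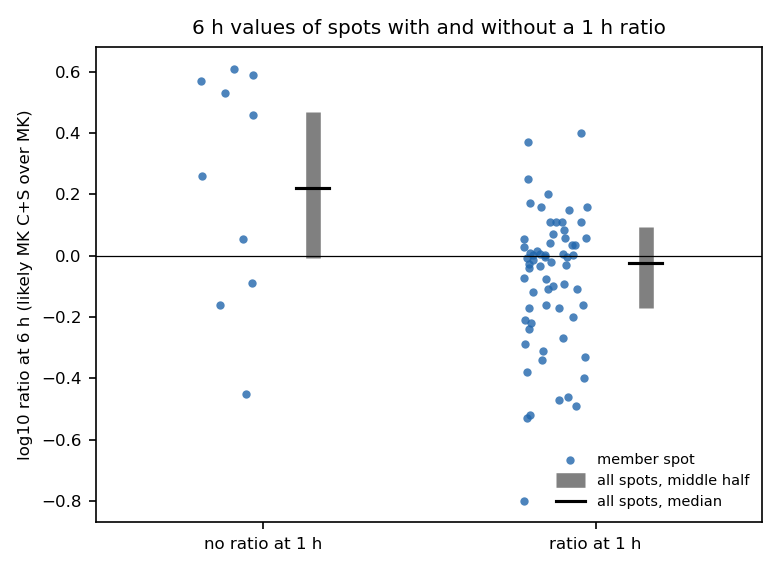
Log10 ratio at 6 h of each member spot (blue points), split by whether the spot had a ratio at 1 h, beside the interquartile range (grey bar) and the median (black line) of all spots. Member spots without a 1 h ratio have a median of 0.36, and those with one a median of -0.021.

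Other genes of the release pathway, from lists outside the symbol pattern, gave 0 calls at an adjusted p of 0.05 in limma as well. Of 14 active zone and priming genes, 1 had a positive and 2 a negative mean at an unadjusted p under 0.05, beside 11.4% of all genes, and 5 had a slope at that p, beside 14.6%. Cacna1b, the N-type calcium channel of release sites, was at -0.55, -0.64, -0.88 and -1.08 (1 spot, adjusted p 0.287). Lin7c, a scaffold protein, was at -0.87, -0.61, -0.57 and -0.23 (adjusted p 0.379), and Doc2b, a calcium sensor, at -0.75, 0.17, 0.12 and -0.23. Cacna1b was past 2-fold on every array, which no member was.

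Of 10 subunits of the proton pump that fills vesicles, 1 had an unadjusted p under 0.05. It was Atp6v0d1, at -0.15, -0.24, -0.20 and -0.19 (SD 0.035, adjusted p 0.416). Of 17 genes of vesicle recovery, Clta, a clathrin light chain, had a positive mean (0.13) and Dnm2, a dynamin, a negative one (-0.14) at an unadjusted p under 0.05. Positive means were found for 12 of the 17, beside 3942 of 8553 over all genes. Of 11 other vesicle proteins, 0 had an unadjusted p under 0.05, and the largest mean was that of Syngr2 (-0.12).

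Marker lists of the cells that a CA1 sample can hold were read beside these values. General neuronal markers had medians of 0.0028, 0.015, -0.0022 and -0.039 at 1, 2, 4 and 6 h. Each array was centred on its median, and the medians of all genes were 0.0013, -0.00074, -0.00095 and -0.0062. Interneuron markers were negative in 9 of 10 genes at 1 h (median -0.090), where 14 of 18 fast release genes were negative (median -0.10). At 2 h 7 of 10 interneuron markers were positive (median 0.053), as were 10 of 16 fast release genes (median 0.021). At 4 and 6 h interneuron markers were 5 positive and 5 negative, while the fast release genes were 4 positive and 14 negative at 4 h and 7 positive and 11 negative at 6 h. Of all genes, 50.4%, 49.7%, 49.8% and 48.6% were positive at 1, 2, 4 and 6 h. Choroid plexus markers had a median of 0.49 at 1 h, with 6 of 7 past 2-fold upwards. Their medians at 2, 4 and 6 h were -0.014, -0.0011 and -0.025, and Ttr was at -0.66 and -1.3 at 2 and 4 h. CA3 markers had a median of -0.36 at 4 h, with 7 of 8 negative. At 1, 2 and 6 h the CA3 medians were -0.034, -0.16 and -0.048. Endothelial markers were negative in 8 of 9 genes at 2 and 4 h, and astrocyte markers positive in 8 of 9 at 6 h. The part of these cell types in the members' values was not tested. Markers of pyramidal and CA1 neurons had medians of -0.0064, -0.043, 0.086 and -0.14, and single genes differed. Wfs1 was positive on all arrays (0.32, 0.10, 0.24 and 0.16), Neurod6 negative on all (-0.011, -0.24, -0.37 and -0.26), and Hpca was at -0.44, -0.13, 0.40 and -0.34. Ratios do not tell how much CA1 tissue a sample held.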

How the data were processed

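Log ratios of CA1 RNA from 4 arrays with 2 dyes were analysed, 1 for each time, grouped by the time in the labels. The authors deposited a ratio of both dyes for each spot on a log scale, here read as log10 from the range of values. Base, direction, scanner, background correction and normalization are not stated in the sources used. Each deposited column had a median of 0, and the spots without a ratio (exact 0) were 22.7%, 9.34%, 7.39% and 10.0% at 1, 2, 4 and 6 h. They were left out, and the median of the rest was subtracted from each array. The scale between arrays and the centring method stay unknown. No intensities or depths were used, so signal over background could not be examined.

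The platform annotation named 13738 spots with 1 gene, 52 with several, and 2491 were not named here. Entrez identifiers of 13694 spots matched the RefSeq table (GRCm38.p6, used for names), which changed 0 symbols. A gene's value is the mean of its measured spots. Genes at single times were counted at 2-fold, with no p-value. Two-sided tests of the mean over times and of the slope on hours used limma 3.58.1 (lmFit, eBayes) under R 4.3.3. They covered the 8553 genes measured on all arrays, with Benjamini-Hochberg adjustment over all genes at 0.05. Their error is the spread among times, as each time has a single array, and may be technical. The procedure was also run on simulated independent noise with added changes larger than the members' means and slopes. That run does not show how well smaller changes are found.

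The members and the gene lists were chosen with earlier results of these data known. Named genes were the fast release genes, members past 2-fold at any time, the 10 largest means in size, the 4 smallest p in the slope, members whose spots lay over 2-fold apart and up to 3 genes per further list. Other members were named to account for them all, and marker genes and the promoters shown were chosen after their values were seen. Alternatives covered the size threshold, log base, centring, exact zeros, the summary of spots, a running median over 51 spots, scaling, array weights, a looser filter and leaving out each array. Restricting to spots with a ratio on all arrays was added after the data were seen.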

Additional observations from a re-analysis of the deposited data

Results flagged for a closer look

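In 3 of the 51 members with a value on all arrays, 1 array stood apart from the other 3 by Dixon's test. Chance flags about 1 in 20 groups, and the arrays are different times and not replicates. Rab30 was at 0.16 at 1 h, against -0.15 or lower at the other times. Rab38 was at -0.12 at 6 h, against 0.15 or higher. Syn2 was at 0.19 at 6 h, against -0.0048 or lower, and its 2 spots at 6 h were at 0.61 and -0.24.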

How the results depend on the processing

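At 1.5-fold, 11 of 57, 8 of 56, 7 of 58 and 20 of 58 members passed at 1, 2, 4 and 6 h (against 4, 2, 1 and 14 at 2-fold), beside 25.1%, 24.2%, 23.1% and 39.9% of all genes. With the values read as base-2 or natural logs, 0 passed at 1, 2 and 6 h. With a running median over 51 spots removed, 9 of 58 members passed at 6 h (against 14), beside 19% of all genes. The 2 h median was then -0.039 (against 0.0082). In the mean, 7 had an unadjusted limma p under 0.05 (against 3), beside 11.9% of all genes. The members' share no longer lay below the background there. With spots that had a ratio on all arrays, 1, 2 and 9 of 51 members passed at 2, 4 and 6 h. Of all genes, 5.61%, 6.95% and 18% did. The 6 h median of the members was then -0.073 (against -0.029). In the slope, the count of 5 of 51 was 3 of 51 with arrays scaled alike (10.7% of all genes), 12 of 61 with exact zeros kept (13.7%), 1 of 51 with array weights (9.96%) and 9 of 58 with genes on at least 3 arrays (16.1%). Leaving out each array gave 1 to 3 of 51 members in the mean, beside 6.28% to 13% of all genes. In the slope it gave 2 to 5 of 51, beside 7.99% to 16.7%. Of 74 such comparisons of counts and medians, 51 stayed close to the values reported. Over 204 means of single members with an array left out, 29 changed sign, in 21 members. Among the 10 largest, only the Stx17 mean (-0.098) changed sign, to 0.046 without the 6 h array. The limits are 1 array a time, mostly 1 spot a gene and no intensities.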
